A study of Danio rerio with 6 samples.

Results

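The genes described here mark the cells that line blood and lymph vessels, together with the growth factor that these cells follow. They were taken by name from the deposited expression tables: the VEGF receptor genes kdrl, kdr, flt1 and flt4, the Tie receptor genes tie1 and tek, the transcription factor gene fli1a, the surface or secreted protein genes clec14a and egfl7, and the ligand gene vegfaa. All 10 were present among 19071 listed genes and all 10 passed the filter on low values, as 18432 genes did. RNA-seq was performed on whole zebrafish larvae at 3 days post fertilization (dpf), in 3 libraries of P2RY11 mutants and 3 libraries of their WT siblings. The mutants were homozygous for a short frameshift deletion in p2ry11 that had been made with CRISPR/Cas9 and kept as 1 line from an F1 founder, so the model rests on 1 allele. Mutants and WT siblings both came from intercrosses of p2ry11 heterozygous fish, and larvae of both groups were raised in E3 medium with methylene blue. Each library was made from pooled whole animals, so a difference in the share of vessel cells and a difference in RNA per vessel cell cannot be told apart. Whether pools within a group derived from different clutches is not given, and p-values thus describe only the spread among these 6 libraries.

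Blood vessels grow when tissues release VEGF, a secreted ligand that binds receptor tyrosine kinases on endothelial cells. In zebrafish, kdrl and kdr encode the receptors that carry most of the growth signal, flt1 encodes a receptor that also exists as a soluble decoy, and flt4 encodes the VEGF-C receptor of veins and lymphatics. The angiopoietins act through the second receptor system, Tie, in which tek is the angiopoietin receptor and tie1 its partner. Transgenic reporters driven by kdrl or fli1a regulatory sequence are widely used to image zebrafish vessels.

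The values are FPKM, in which fragments are divided by transcript length and by the size of the library, so levels can be compared between genes. Depth cannot be recovered from them. p2ry11 was listed at 0 in all 3 mutant libraries, against 0.707, 0.853 and 1.02 FPKM in the WT siblings (exact permutation test in both directions, p = 0.1, the smallest that 3 libraries against 3 allow). One library stood apart: WT sibling replicate 3 had a mean correlation of 0.966 with the other WT libraries. Those libraries had 0.979 to 0.981, means that include their correlation with replicate 3, and each mutant library had 0.990. Part of the results are therefore also given without WT sibling replicate 3. A log2 difference is the mutant mean minus the WT sibling mean of log2(FPKM + 1), a scale on which changes of weakly expressed genes appear too small, and a gene was called at a Benjamini-Hochberg adjusted p under 0.05 from limma over all genes tested. The median log2 difference of all genes tested was 0.16, and it was 0.012 after median-of-ratios scaling. Endothelial cadherin cdh5 averaged 8.46 ± 0.0991 FPKM in mutants and 7.03 ± 0.0852 FPKM in WT siblings (SD, n = 3 each), and pecam1 averaged 4.37 ± 0.242 FPKM in mutants and 4.19 ± 0.179 FPKM in WT siblings, so both defining endothelial junction markers were detected in every library. Neither was called by limma, with log2 differences of 0.24 for cdh5 and 0.049 for pecam1 (adjusted p = 0.111 and 0.761).

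Of the 10 vessel genes, kdrl rose, tek fell and the other 8 did not pass the test in P2RY11 mutants. The 1 gene called higher stands against 8.23% of all genes tested that were called higher, and the 1 called lower against 3.98% called lower, so the counts themselves are close to the background. Libraries did not overlap between the groups for 4 genes that were higher in every mutant library (kdrl, kdr, flt1 and flt4) and for 1 that was lower (tek), while 35.0% of all genes were higher and 11.7% lower without overlap. The original study required a fold above 1.5 and p under 0.05 without adjustment. These cutoffs were applied with the limma p used here in place of the study's own p, so the calls are not those of the study. By them kdrl and flt1 counted as higher and tek as lower, while 15.0% and 4.73% of all genes met them. The median log2 difference of the 10 genes was 0.23, against 0.16 for all genes tested.

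**Figure D1:**
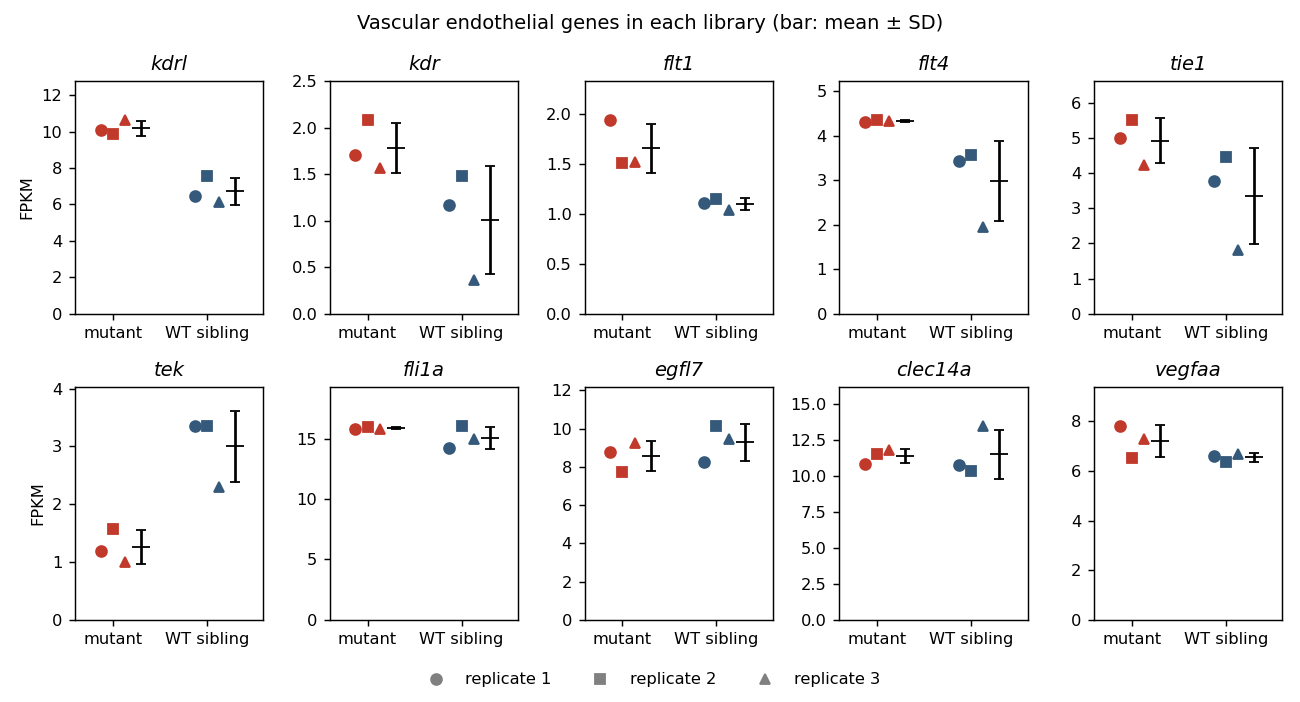
FPKM (vertical axes, each from 0) of the 10 vessel genes in the 3 P2RY11 mutant libraries (red, left) and the 3 WT sibling libraries (blue, right), with the mean and SD of each group as a black bar. The groups do not overlap for kdrl, kdr, flt1, flt4 and tek, and WT sibling replicate 3 (blue triangle) is the lowest of the 6 points for kdrl, kdr, flt1, flt4 and tie1.

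Among the VEGF receptor genes, kdrl, whose product is the main VEGF-A receptor of zebrafish endothelium, had 10.1, 9.84 and 10.6 FPKM in mutant replicates 1 to 3, against 6.46, 7.54 and 6.14 FPKM in WT sibling replicates 1 to 3. The lowest mutant value exceeded the highest WT sibling value. The mean in mutants was 1.52 times that in WT siblings, and kdrl was called higher by limma (adjusted p = 0.0254) at a log2 difference of 0.54 with an SE of 0.108. Without WT sibling replicate 3 the difference was 0.49 (adjusted p = 0.00805). The call was lost under median-of-ratios scaling (adjusted p = 0.0528), and it was also lost on leaving out mutant replicate 1, 2 or 3 or WT sibling replicate 1, where the adjusted p reached 0.118.

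The paralog kdr was expressed at a lower level, with 1.71, 2.09 and 1.57 FPKM in mutants, against 1.172, 1.49 and 0.357 FPKM in WT siblings. The groups did not overlap, but the highest WT sibling value lay just under the lowest mutant value, and WT sibling replicate 3 was far below the rest. The log2 difference of 0.52 did not pass the test (95% interval -0.027 to 1.06, adjusted p = 0.157), and it was 0.26 without that replicate. For flt1, whose product also acts as a decoy for VEGF, mutants had 1.94, 1.503 and 1.52 FPKM, against 1.105, 1.15 and 1.03 FPKM in WT siblings. The WT sibling values were tight and all below the mutant values, yet the log2 difference of 0.34 was not called (95% interval 0.054 to 0.62, adjusted p = 0.0980). The VEGF-C receptor gene flt4 had 4.30, 4.35 and 4.33 FPKM in mutants, against 3.43, 3.57 and 1.95 FPKM in WT siblings. Its mutant libraries were nearly equal and above every WT sibling library, with WT sibling replicate 3 again the lowest. The log2 difference was 0.45 with all libraries (95% interval 0.012 to 0.88, adjusted p = 0.134) and 0.24 without that replicate (adjusted p = 0.0954). All 4 VEGF receptor genes thus had positive differences, also after quantile normalization, rescaling to TPM or median-of-ratios scaling, although kdr and flt4 turned to -0.071 and -0.0027 in a linear model with a library covariate. With the deposited FPKM, 12703 of all 18432 genes tested had a positive difference as well.

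Of the Tie receptor genes, tek fell and tie1 did not pass the test. The angiopoietin receptor gene tek had 1.19, 1.57 and 0.997 FPKM in mutants, against 3.35, 3.35 and 2.30 FPKM in WT siblings. The groups did not overlap, and the mean in mutants was 0.418 times that of WT siblings. The log2 difference was -0.82 (SE 0.167, adjusted p = 0.0263), the most negative of the 10 genes, and -0.96 without WT sibling replicate 3 (adjusted p = 0.00257). For tek it was -1.06 after quantile normalization, -0.93 after rescaling to TPM and -0.94 with median-of-ratios scaling, and tek was called under each of these. The call was lost when any of the mutant libraries or WT sibling replicate 1 or 2 was left out, with an adjusted p between 0.0548 and 0.118. Its partner tie1 had 5.01, 5.52 and 4.24 FPKM in mutants, against 3.79, 4.46 and 1.81 FPKM in WT siblings. Here the groups overlapped, since WT sibling replicate 2 exceeded mutant replicate 3. The log2 difference of tie1 was 0.49 (95% interval -0.095 to 1.08, adjusted p = 0.199), and 0.21 without WT sibling replicate 3.

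**Figure D2:**
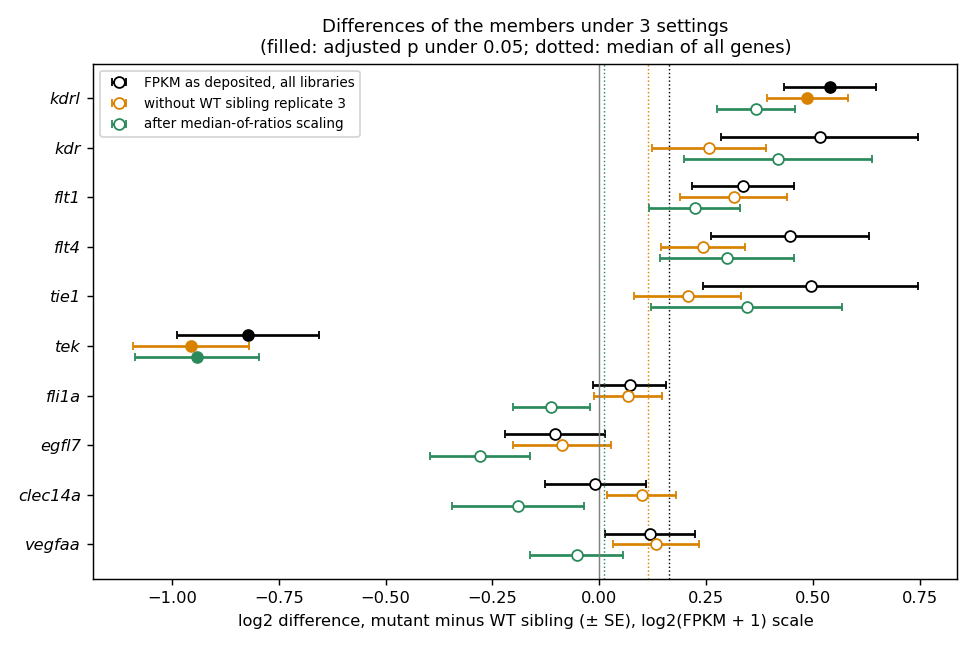
Log2 difference (mutant minus WT sibling, horizontal axis, bars are SE) of each vessel gene with the deposited FPKM, without WT sibling replicate 3 and after median-of-ratios scaling; filled points were called and dotted lines mark the median of all genes under each setting. tek stays near -0.8 to -1.0 under all 3, and the points of kdr, flt4 and tie1 lie closer to the median of all genes without WT sibling replicate 3.

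The remaining members showed small differences. The ETS transcription factor gene fli1a, active in endothelium and also in neural crest derived cells, had 15.8, 16.0 and 15.8 FPKM in mutants, against 14.2, 16.1 and 15.0 FPKM in WT siblings. The mutant values fell inside the WT sibling range, and the interval of the log2 difference was -0.13 to 0.27. For egfl7, which encodes a protein secreted by endothelial cells into the vessel matrix, mutants had 8.76, 7.71 and 9.25 FPKM, against 8.24, 10.1 and 9.48 FPKM in WT siblings (log2 difference -0.10, 95% interval -0.38 to 0.17). For clec14a, an endothelial surface lectin, mutants had 10.8, 11.5 and 11.8 FPKM, against 10.8, 10.3 and 13.5 FPKM in WT siblings. In this gene WT sibling replicate 3 was the highest library, and the log2 difference was -0.0098 with it (95% interval -0.29 to 0.27) and 0.099 without it. The ligand gene vegfaa, which is expressed by the tissues around vessels, had 7.82, 6.53 and 7.29 FPKM in mutants, against 6.61, 6.35 and 6.69 FPKM in WT siblings. The groups overlapped, with a log2 difference of 0.12 (95% interval -0.13 to 0.37). The adjusted p from limma of these 4 genes lay between 0.441 and 0.959. The signs of the clec14a, fli1a and vegfaa differences depended on the scaling, as fli1a and vegfaa turned negative after quantile normalization or median-of-ratios scaling and clec14a positive after rescaling to TPM.

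WT sibling replicate 3 did not differ from the other WT siblings alike in all members. Its log2 value minus the mean of WT sibling replicates 1 and 2 was -0.86 in tie1, -0.78 in kdr, -0.61 in flt4 and -0.40 in tek. It was -0.16 in kdrl, -0.066 in flt1 and -0.012 in fli1a, and positive in vegfaa (0.040), egfl7 (0.046) and clec14a (0.33). The part of this library in the differences of kdr, flt4 and tie1 is shown by their values without it, which were 0.26, 0.24 and 0.21.

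The order of mean levels differed between the groups: kdrl stood above egfl7 in mutants and below it in WT siblings, tek stood last in mutants, and kdr and flt1, whose ranges overlapped in both groups, changed places. In mutants the means ran from fli1a (15.9 FPKM), clec14a (11.4), kdrl (10.2), egfl7 (8.57), vegfaa (7.21), tie1 (4.93), flt4 (4.33), kdr (1.79) and flt1 (1.65) to tek (1.25). The ranges of egfl7 and vegfaa, tie1 and flt4, kdr and flt1, and flt1 and tek overlapped, so these neighbors were not separated beyond the spread of the libraries. In WT siblings the order was fli1a (15.1 FPKM), clec14a (11.5), egfl7 (9.29), kdrl (6.71), vegfaa (6.55), tie1 (3.35), tek (3.00), flt4 (2.98), flt1 (1.097) and kdr (1.01). There the ranges of kdrl and vegfaa, tie1 and tek, tek and flt4, and flt1 and kdr overlapped. The member with the highest level was thus fli1a in both groups, and the Tie receptors, which overlapped in WT siblings, were apart in mutants.

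A ratio of 2 genes within a library does not depend on how that library was scaled, and 5 such ratios were compared. The tek to tie1 ratio was 0.237, 0.285 and 0.235 in mutants, against 0.883, 0.752 and 1.27 in WT siblings. The groups were far apart, with a mean log2 difference of -1.91 and of -1.70 without WT sibling replicate 3. The vegfaa to kdrl ratio was 0.776, 0.663 and 0.685 in mutants, against 1.02, 0.842 and 1.09 in WT siblings, a mean log2 difference of -0.47 without overlap. For both ratios the exact permutation test in both directions gave p = 0.1, the smallest possible here, and 0.25 after Benjamini-Hochberg adjustment over the 5 ratios. In contrast, the flt1 to kdrl ratio was 0.193, 0.153 and 0.143 in mutants, against 0.171, 0.153 and 0.168 in WT siblings, and overlapped (log2 difference -0.023). The flt4 to kdrl and kdr to kdrl ratios also overlapped, with log2 differences of -0.019 and 0.45 (exact permutation p = 1 and 0.7), and the lowest value of each was that of WT sibling replicate 3. Without that replicate the differences were -0.24 for flt4 to kdrl and -0.12 for kdr to kdrl, so the second changed sign. Set against the mean log2 FPKM of the other 9 members of the same library, kdrl was 1.12, 1.07 and 1.29 above it in mutants and 0.60, 0.70 and 0.93 above it in WT siblings. By the same measure tek was -2.30, -1.87 and -2.50 in mutants and -0.46, -0.59 and -0.65 in WT siblings, the widest separation of the 10 genes. Both kdr and flt4 were also higher in every mutant library, with group means 0.92 and 0.40 apart, against 0.42 for kdrl. The reference for kdrl, kdr and flt4 includes tek, whose lower mutant values by themselves raise these genes on this measure. For kdr, WT sibling replicate 3 stood at -3.63, against -2.14 and -1.90 in WT sibling replicates 1 and 2. The groups overlapped for the remaining members.

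**Figure D3:**
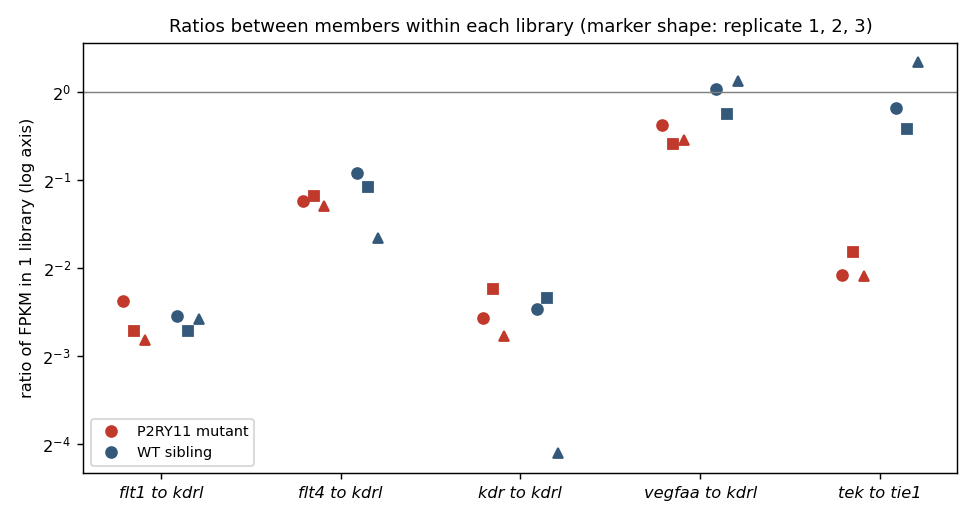
Ratio of the FPKM of 2 vessel genes within 1 library (vertical log axis) for 5 pairs, in P2RY11 mutant (red, left) and WT sibling libraries (blue, right); circle, square and triangle are replicates 1, 2 and 3. The tek to tie1 ratio is 0.235 to 0.285 in mutants and 0.752 to 1.27 in WT siblings, while the flt1 to kdrl ratios overlap.

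Beyond the 10 members, 218 other genes tested from 10 lists of vessel biology had 21 called higher (9.63%) and 3 called lower (1.38%), against 8.23% and 3.98% of all genes. Their median log2 difference was 0.24. After median-of-ratios scaling 8 were called higher (3.67%) and 11 lower (5.05%), against 3.62% and 5.70% of all genes under that scaling. Without WT sibling replicate 3 the counts were 52 (23.9%) and 15 (6.88%), against 20.1% and 8.11% of all genes. On leaving out mutant replicate 1, 2 or 3 the counts were 0 and 0, where under 1% of all genes were called in each direction. Leaving out WT sibling replicate 1 gave 2 higher and 0 lower, against 1.166% and 0.879% of all genes. None of the 9 tested genes of the VEGF ligand and coreceptor list, which holds vegfaa, was called by limma. Of them 0 had an unadjusted p under 0.05, against 6494 of all 18432 genes tested. The coreceptor genes nrp1a and nrp1b, which help VEGF bind its receptors, had log2 differences of 0.30 and 0.45 (adjusted p = 0.208 and 0.251), and the second VEGF-A gene vegfab had -0.14 (adjusted p = 0.394). In the angiopoietin and Tie list, of which 12 genes were tested, tek was the 1 gene that fell (8.33%, against 3.98% of all genes). The tek ligand gene angpt1 was not called, with a log2 difference of 0.29 (adjusted p = 0.232), nor was the Tie phosphatase gene ptprb (0.28, adjusted p = 0.168).

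Of 22 endothelial transcription factor genes tested, none was called at an adjusted p under 0.05 from limma, and 4 had an unadjusted p under 0.05. Of all genes, 8.23% were called higher and 3.98% lower, and 6494 of 18432 had an unadjusted p under 0.05. The flow-responsive genes klf2a and klf2b had log2 differences of 0.32 and 0.34 (adjusted p = 0.0614 and 0.0781), and the ETS factor gene erg had 0.40 (adjusted p = 0.0804). All 3 were higher in every mutant library than in any WT sibling library. Without WT sibling replicate 3, 3 genes of this list were called higher and 1 lower, in a setting that called 20.1% and 8.11% of all genes. The 3 were klf2a, klf2b and foxc1a (limma adjusted p = 0.0298, 0.0474 and 0.0218), and the 1 was ets1 (0.0219). In that setting erg was not called (adjusted p = 0.0515). The gene ets1, listed as CABZ01069595.1 and named in the name table, had 9.16, 10.8 and 3.89 FPKM in WT sibling replicates 1 to 3. With all libraries its groups overlapped, and its log2 difference was -0.19 (adjusted p = 0.702).

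Of 39 endothelial junction and surface genes, 5 rose (12.8%) and 1 fell (2.56%), against 8.23% and 3.98% of all genes. The apelin ligand gene apln, a marker of sprouting tip cells, had 16.7, 14.3 and 14.7 FPKM in mutants, against 10.1, 10.8 and 8.91 FPKM in WT siblings (log2 difference 0.57, adjusted p = 0.0231). The surface protein gene ecscr, whose product guides endothelial migration, rose by 0.88, the calcitonin receptor-like receptor gene calcrla by 0.77 and krit1, a junction regulator of the cerebral cavernous malformation complex, by 0.47 (adjusted p = 0.0225, 0.0366 and 0.0394). A gene listed as si:dkey-261h17.1 and named cd34 in the name table rose by 0.90 (adjusted p = 0.0273). The Wnt inhibitor gene tmem88a fell to 5.23, 4.42 and 4.30 FPKM in mutants, against 8.23, 7.45 and 9.71 FPKM in WT siblings (log2 difference -0.74, adjusted p = 0.0200).

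In the list of artery, vein and Notch genes, 3 of 21 rose (14.3%) and 1 fell (4.76%), against 8.23% and 3.98% of all genes. The Notch ligand gene dlc rose by 0.41, the Notch target gene hey1 by 0.40 and the arterial ephrin gene efnb2a by 0.42 on the log2 scale (adjusted p = 0.0254, 0.0346 and 0.0439). None of this list was called higher with median-of-ratios scaling, under which 3.62% of all genes were. The chemokine receptor gene cxcr4a, which arterial endothelium and leukocytes express, fell by 0.84 (adjusted p = 0.0299). Of 16 lymphatic and scavenger endothelium genes, 2 rose (12.5%) and none fell, against 8.23% and 3.98% of all genes. These were mrc1a, a mannose receptor of veins and lymphatics, by 0.62, and the scavenger receptor gene stab1 by 0.71 (adjusted p = 0.0342 and 0.0496). Neither direction was called in that list after median-of-ratios scaling, where 3.62% and 5.70% of all genes were called higher and lower. With the deposited FPKM lyve1b, the usual lymphatic marker, had a log2 difference of 0.35 (adjusted p = 0.130).

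In the list of brain endothelium and barrier genes, 3 of 19 rose (15.8%) and none fell, against 8.23% and 3.98% of all genes. Its median log2 difference of 0.36 with the deposited FPKM was the highest of the 10 vessel lists. Over the 16 alternatives fitted this median ran from -0.050 to 0.57, and it was 0.27 to 0.48 when 1 library was left out. The glucose transporter gene slc2a1a had 1.60, 1.52 and 2.15 FPKM in mutants, against 0.718 and 0.423 FPKM in WT sibling replicates 1 and 2 and a listed 0 in replicate 3 (log2 difference 1.03, adjusted p = 0.0281). Without WT sibling replicate 3 the slc2a1a difference was 0.81. The more highly expressed slc2a1b of the same list overlapped between the groups and was not called (log2 difference 0.74, adjusted p = 0.265). The transporter genes abcb4 and slco1d1 rose by 0.72 and 0.45 (adjusted p = 0.0289 and 0.0386). The mural cell list is for pericytes and smooth muscle around vessels, but some of its 18 genes, such as desma, are not confined to those cells. Of these 18 genes, cspg4 and foxf2b rose by 1.09 and 0.65, while the smooth muscle gene tagln fell by 0.39 (adjusted p = 0.0408, 0.0428 and 0.0480). These are 11.1% and 5.56% of the list, against 8.23% and 3.98% of all genes. The cspg4 value of WT sibling replicate 3 was 0.163 FPKM, against 1.01 and 1.42 FPKM in the other WT siblings. Without that replicate the cspg4 difference was 0.78.

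Downstream of the VEGF receptors, 2 of 47 signalling genes rose and none fell, a share of 4.26% below the 8.23% of all genes. These were nras, encoding a RAS GTPase, and pik3r1, encoding the regulatory subunit of PI3 kinase, with log2 differences of 0.37 and 0.48 (adjusted p = 0.0317 and 0.0337). By other measures the list was not below all genes. In 25 of the 47 every mutant library was higher than every WT sibling library, against 35.0% of all genes. The list median was 0.26, against 0.16 for all genes. Without WT sibling replicate 3, 13 genes of this list were called higher and 2 lower, where 20.1% and 8.11% of all genes were called. The hypoxia pathway senses low oxygen and can raise VEGF transcription, and its list holds sensors, inhibitors and target genes. Of 34 genes tested, 3 rose and none fell, and the 8.82% called higher was close to the 8.23% of all genes. The carbonic anhydrase gene ca9 had 2.45, 3.06 and 2.69 FPKM in mutants, against 0.178, 0.964 and 0.229 FPKM in WT siblings (log2 difference 1.39, adjusted p = 0.0130). The genes hif1al2 and egln2, the second of which encodes an oxygen-sensing prolyl hydroxylase, rose by 0.56 and 1.14 (adjusted p = 0.0266 and 0.0489). For egln2 WT sibling replicate 3 was low at 0.820 FPKM, and the difference was 0.78 without it.

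**Figure D4:**
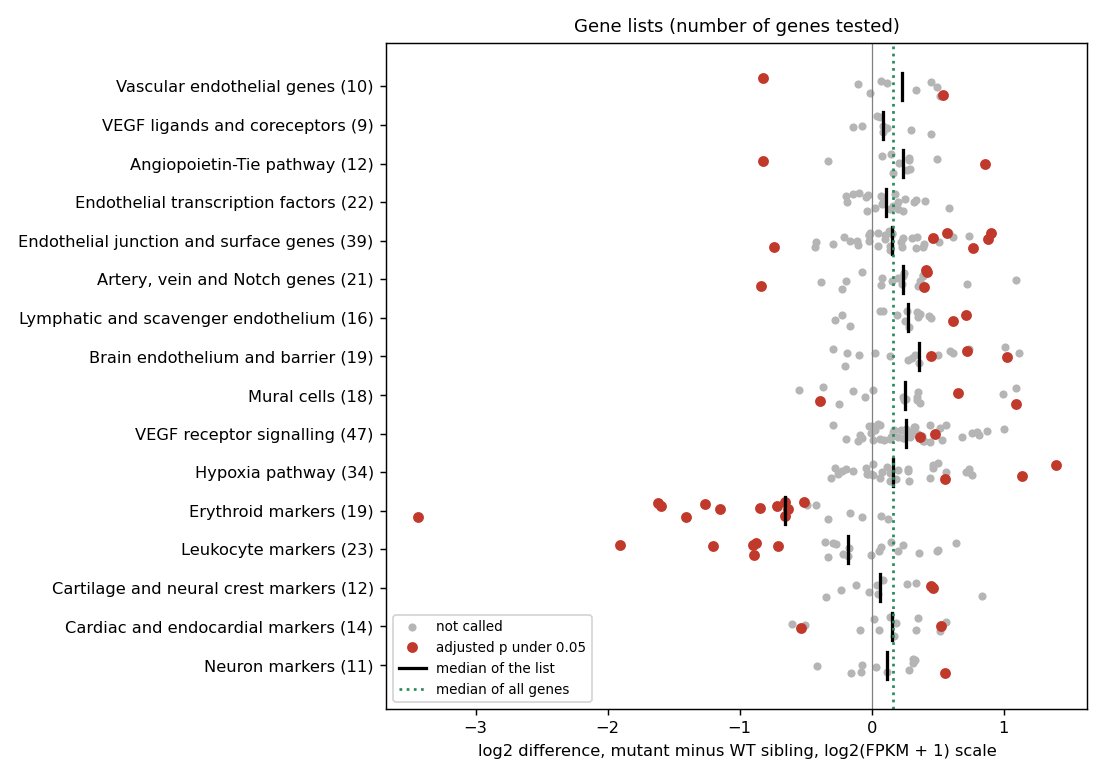
Log2 difference (mutant minus WT sibling) of every tested gene of the 16 lists, 1 row per list with the number tested in brackets; red points were called at an adjusted p under 0.05, black bars are list medians and the dotted line is the median of all genes. The erythroid median is -0.66, while the medians of the vessel lists lie between 0.085 and 0.36.

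Genes of other cells in whole larvae moved at the same time. Of 19 erythroid markers tested, 12 fell (63.2%) and none rose, against 3.98% and 8.23% of all genes. When 1 library was left out 3 to 14 fell, where 0.412% to 8.11% of all genes were called lower. Their summed level was 3339 to 3360 FPKM in mutants, against 6482 to 9340 FPKM in WT siblings. Of 23 leukocyte marker entries, 6 fell (26.1%) and none rose, and 1 to 7 were called lower and 0 to 1 higher when 1 library was left out. Their sums were 143 to 171 FPKM in mutants and 212 to 265 FPKM in WT siblings. Some entries of both lists, among them the globins and the copies listed as MFAP4, have close paralogs, so that reads may be divided between them. Of 12 cartilage and neural crest markers 2 rose (16.7%), and of 14 cardiac markers 1 rose and 1 fell (7.14% each). Of 11 neuron markers 1 rose (9.09%). Summed levels of those 3 lists overlapped between the groups. The summed level of the 10 vessel genes was 66.6 to 67.4 FPKM in mutants, against 58.2 to 64.4 FPKM in WT siblings. The part of these other cells in the vessel gene values was not tested.

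By the order of genes in a RefSeq table of another assembly (GRCz12tu), none of the 10 members lay on the chromosome of p2ry11. The tested genes nearest to the called members, as far as matched by name, were also read, with up to 3 on each side. Genes that were not tested or not matched may lie between them. Next to tek, zgc:158463 on one side fell by 0.73 (adjusted p = 0.0214). On the other side ift74, thap1 and rnf170 had log2 differences of -0.36, 0.12 and -1.25. Only rnf170, the farthest of these 3, was called among them (adjusted p = 0.00353). Next to kdrl, 1 of 6 neighbors was called, gdpd2, with a log2 difference of 0.57 (adjusted p = 0.0173). For comparison, 8.23% of all genes tested were called higher and 3.98% lower. These neighbors were read after the values of tek and kdrl had been seen.

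The mean standardized profile of the 10 members over the 6 libraries was 0.47, 0.20 and 0.35 in mutants, against -0.48, 0.072 and -0.62 in WT siblings. The genes with the most similar profile were phlpp1, lhx5, slc6a15, fgfbp2b and raph1b, with Pearson r between 0.995 and 0.997 and Spearman rho of 1 over the 6 libraries. With so few libraries such values are common: 11.9% of the other genes had an r above 0.9. The profile and the 5 named genes share the split between the groups and the low values of WT sibling replicates 1 and 3.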

How the data were processed

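Whole-larva RNA was sequenced on an Illumina instrument by a company. Per the authors' methods, trimmed reads were aligned with HISAT2, and gene values came from StringTie with Ballgown. Versions in the submitters' processing notes are HISAT2 2.1.0, StringTie 1.3.3, cutadapt 1.17 and FastQC 0.11.7, and the notes list a human build, GRCh37, whereas the paper's methods name GRCz11 and the gene IDs are those of zebrafish. The deposited values are FPKM for 19071 genes per library; the unit stands in the header of 4 of the 6 tables, and the other tables hold values in the same range. Library depth and the strand setting are not given in the sources used here, and too few low values were shared between libraries to recover depth, so no counting error is stated.

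Here log2(FPKM + 1) of the 18432 genes averaging 0.5 FPKM or more was compared between 3 mutant and 3 WT sibling libraries with limma 3.58.1 in R 4.3.3 (eBayes with trend, no covariate, both directions, Benjamini-Hochberg over all genes). The test was tried on simulated data first. Ratios and p2ry11 were tested by exact permutation. The members, the 15 other gene lists and the tests were chosen with earlier results of these data known. Genes named are the members, p2ry11, up to 4 genes with the smallest p of each list, and the 5 genes most similar in profile; other genes were named after their values were seen. Of 334 listed symbols 303 were found, 12 of them through a table of gene IDs. Alternatives were a replicate block, quantile normalization, median-of-ratios scaling, rescaling to TPM, pseudocounts of 0.1 and 0.5, a higher filter (mean of 1 FPKM) or none, a linear model with a library covariate as in Ballgown, limma without trend, the study's criteria and leaving out each library. For the study's criteria, the limma p took the place of the study's own p. Ratios to the mean of the other members were described without a test. Figures were drawn with matplotlib 3.10.9. No protein or promoter sequences were used here. One gene of the angiopoietin and Tie list is not reported here.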

Additional observations from a re-analysis of the deposited data

How the results depend on the processing

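The direction of kdrl and tek held under all 16 alternatives fitted, with log2 differences of 0.37 to 0.67 for kdrl (adjusted p 0.00805 to 0.205) and -1.20 to -0.74 for tek (adjusted p 0.00257 to 0.174). Of the 10 members, 0 were called higher after median-of-ratios scaling, with the replicate block and in the linear model with a library covariate. Of all genes, 3.62%, 3.65% and 0% were called higher in these settings. That linear model also called 0 members lower, as it called 0 of all genes. The study's criteria called 2 higher, kdrl and flt1, against 15.0% of all genes. Leaving out 1 library gave 0 to 1 member called in each direction. There 0.635% to 20.1% of all genes were called higher and 0.412% to 8.11% lower. Whether the replicate numbers pair the libraries is not given, and weak correlations between libraries cannot settle it. Correlations of same-numbered deviations were 0.016, 0.072 and 0.14, against -0.13 to 0.11 for differently numbered ones. Among the mutant libraries only replicate 3 correlated best with its own number, while among the WT siblings replicates 2 and 3 did. With the replicate block in limma kdrl had an adjusted p of 0.0597 and tek of 0.0378.

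Over all genes, 1517 were called higher and 733 lower. The numbers were 672 and 404 with the replicate block and 980 and 1310 after quantile normalization. Median-of-ratios scaling called 668 higher, and the study's cutoffs, applied to the limma p, 2766 higher. The linear model with a library covariate called 0 in either direction (3665 genes at an unadjusted p under 0.05). Leaving out 1 library gave 117 to 3712 higher and 76 to 1495 lower, the highest numbers without WT sibling replicate 3. Of all calls, 67.4% were higher in mutants with the deposited FPKM, 77.1% with TPM, 42.8% with quantile normalization and 38.9% with median-of-ratios scaling, where the median log2 differences were 0.16, 0.28, 0.0056 and 0.012. The cause of these changes was not tested.

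Members that were not called changed sign in some settings. In the linear model with a library covariate kdr was -0.071, flt4 -0.0027, tie1 -0.17 and clec14a 0.25. With quantile normalization fli1a was -0.024 and vegfaa -0.054, and with median-of-ratios scaling they were -0.11 and -0.052. The clec14a difference was 0.092 after rescaling to TPM and ran from -0.079 to 0.099 when 1 library was left out. Depth is unknown, so no counting error could be given for any value.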
